A study of Oryza sativa with 12 samples.

Results

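Among long non-coding RNAs (lncRNAs) of rice leaves, 62 transcripts stood lower in the cold in both cultivars examined, Dongnong422 and Kongyu131. They were chosen in 3 steps from the 1485 listed transcripts of 1039 loci. Of these, 828 were the sole listed transcript of their locus. Among those, 499 averaged at least 0.5 FPKM over the 6 libraries of each cultivar. FPKM counts sequenced fragments per length of transcript, scaled to the total mapped, so it is a share of its library and its depth is unknown. The 62 members were those whose log2(mean cold FPKM + 0.1) minus log2(mean control FPKM + 0.1) was −0.6 or lower in each cultivar, from means of 3 libraries. This quantity is called the cold difference below. Because it chose the members, their cold differences describe the choice and are given without a test.

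Leaves of Oryza sativa at the booting stage, when the young panicle is still inside the leaf sheath, were profiled by strand-specific RNA sequencing after removal of ribosomal RNA. The 12 libraries form 4 groups of 3, namely cold Dongnong422, control Dongnong422, cold Kongyu131 and control Kongyu131. Plants grew in a natural environment, and cold plants spent 13 days at 17 °C in an incubator, lit for 16 h and dark for 8 h each day. The control libraries carry the same protocol text, so where and at what temperature the controls stood is not stated, and temperature and incubator cannot be told apart. A leaf was taken from each bucket, and no label says whether replicates were separate plants, so p-values measure the spread between these libraries, which may be technical.

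Long intergenic non-coding RNAs (lincRNAs) lie between protein-coding genes, and antisense lncRNAs run along the opposite strand of another gene. Members of both classes are known to act on chromatin, on transcription of a neighbouring or overlapping gene, or on small RNAs. In Arabidopsis, cold is known to raise the antisense transcripts COOLAIR at the flowering repressor gene FLC. At the booting stage, cold is known in rice for damage to pollen development. The identifiers carry no symbols or positions, so no host or neighbouring gene and no role could be given to any member, and each is named by its transcript and locus identifiers. The labels name a strand-specific kit but not how strand was used in quantification, so an antisense value may hold reads of the opposite gene.

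Of the 62 members, 40 (64.5%) were lincRNAs and 22 (35.5%) antisense lncRNAs. The classes stood in much the same ratio among the 499 transcripts at the floor of 0.5 FPKM, with 62.1% lincRNAs and 37.9% antisense lncRNAs. The median member averaged 1.80 FPKM in Dongnong422 and 1.93 FPKM in Kongyu131, against 1.79 and 1.80 FPKM for the median transcript at the floor. By class, and by level averaged over cold and control, the members were thus close to the transcripts they were drawn from. Within treatments they were not. The median member stood above the median transcript at the floor in every control library and below it in every cold library, as the rule makes likely.

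The members' median cold difference was −1.12 in Dongnong422 and −1.12 in Kongyu131, against −0.08 and −0.20 over the 499 transcripts at the floor. Values ran from −0.63 to −6.26 in Dongnong422 and from −0.60 to −5.11 in Kongyu131. In 30 members it was −1 or lower in both cultivars, in 11 it was −1.5 or lower and in 5 it was −2 or lower. Another 8 reached −1 in Dongnong422 only, 10 in Kongyu131 only, and 14 in neither. At the floor, 128 transcripts met the threshold in Dongnong422 (25.7%) and 156 in Kongyu131 (31.3%), so the members were 48.4% of the first list and 39.7% of the second. In leaf tissue as a whole, fewer cells of a type and less RNA per cell cannot be told apart.

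**Figure D1:**
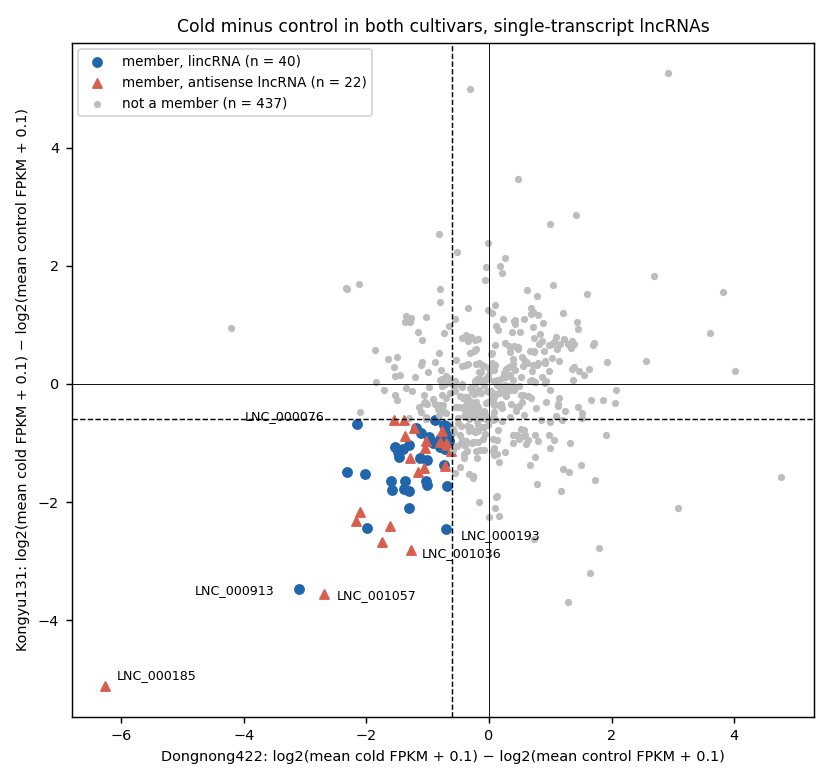
Cold difference in Dongnong422 (x axis) and Kongyu131 (y axis), in log2 units, of the 499 single-transcript lncRNAs at the floor of 0.5 FPKM. Blue circles are the 40 lincRNA members, red triangles the 22 antisense members, grey points the other transcripts, and dashed lines the threshold of −0.6. LNC_000185 lies far below the rest, at −6.26 and −5.11.

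Summed over the 62 members, the level was 188 to 215 FPKM in cold and 388 to 502 FPKM in control Dongnong422 libraries. In Kongyu131 it was 148 to 223 FPKM in cold and 425 to 599 FPKM in control libraries. Without LNC_000185, the sums were 187 to 214 FPKM in cold and 379 to 472 FPKM in control Dongnong422 libraries, and 147 to 219 FPKM in cold and 357 to 487 FPKM in control Kongyu131 libraries. The rule fixes the direction of both pairs of sums, so only their sizes are described.

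In 45 members all 3 cold libraries lay below all 3 control libraries in Dongnong422, where 18.2% of the transcripts at the floor did so. In Kongyu131 this held for 48 members, with 24% of the transcripts at the floor. It held in both cultivars for 41 members, against 9.22% at the floor, and in neither for 10. With the libraries scaled by median ratios, 26 of the 38 transcripts that the rule then chose had no overlap in both cultivars. Scaled by quantiles, it was 26 of the 43 then chosen. The share at the floor was not computed after scaling. A linear model was fitted with limma to 1441 lncRNAs, with Benjamini-Hochberg adjustment. In Dongnong422 it called 11 members lower in the cold (17.7% of members), against 3.19% of all tested. In Kongyu131 it called 25 members (40.3%), against 5.41% of all tested. It called 9 members in both cultivars (14.5%), against 0.833% of all tested. The rule used these contrasts, so nothing is read from these counts.

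**Figure D2:**
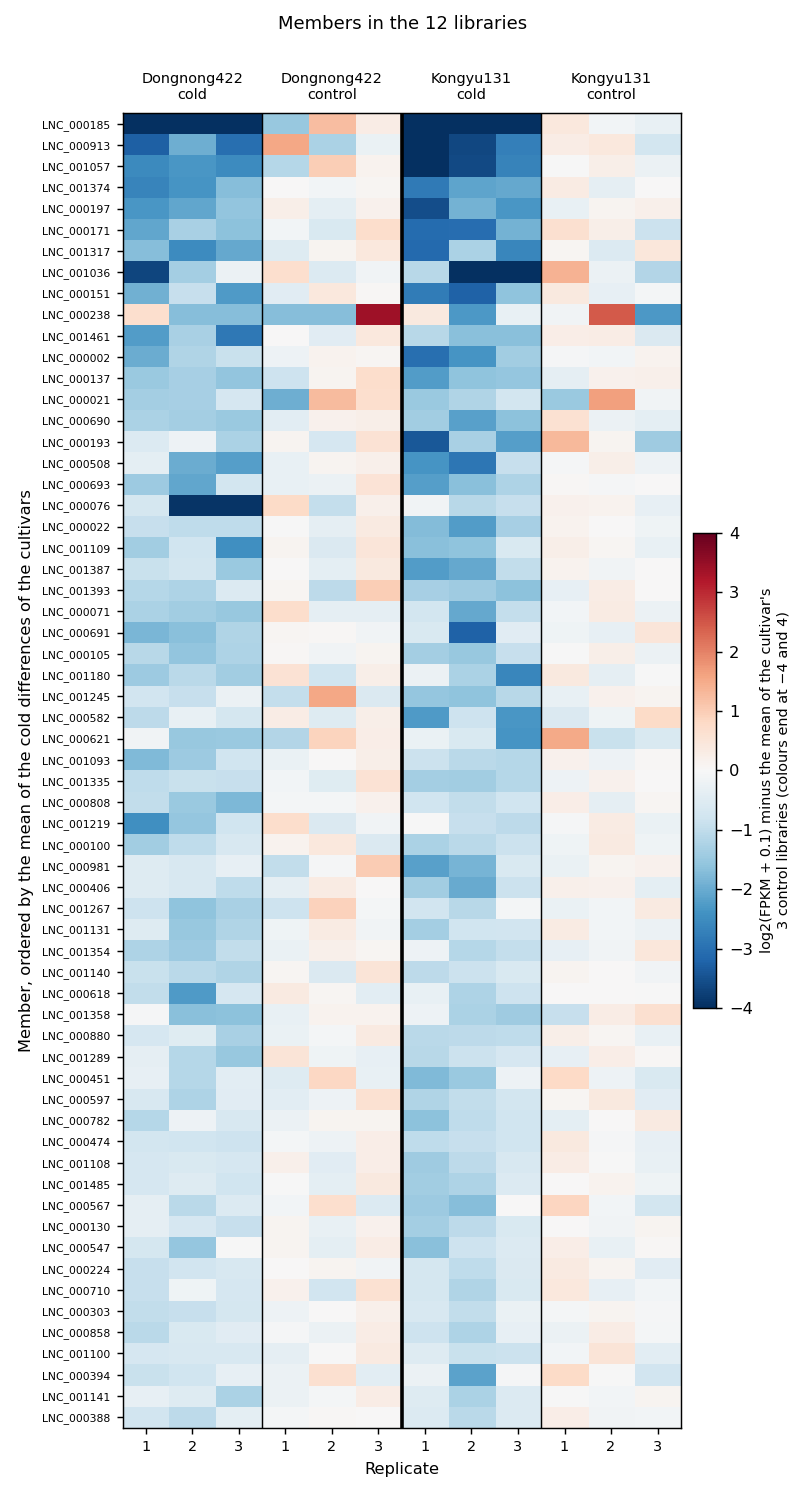
log2(FPKM + 0.1) of the 62 members (rows) in the 12 libraries (columns), each minus the mean of the 3 control libraries of its cultivar. Blue is below and red above that mean, and colours end at −4 and 4. Rows run from the lowest to the highest mean cold difference, and 41 rows have all cold libraries below all control libraries in both cultivars.

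LNC_000185, an antisense lncRNA of locus XLOC_009332, had the lowest cold differences. It stood at 0.589, 0.257 and 0.145 FPKM in cold and 8.65, 59.3 and 30.6 FPKM in control Dongnong422 libraries. In Kongyu131 it stood at 1.68, 1.23 and 4.26 FPKM in cold and 112, 77.9 and 68.5 FPKM in control libraries. The cold mean was 1.01% of the control mean in Dongnong422 and 2.77% in Kongyu131, and no cold library reached a control library of either cultivar. Control levels in Dongnong422 spread widely, with replicate 1 far below the others.

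The lincRNA LNC_000913 (XLOC_033792) stood at 0.120, 0.438 and 0.160 FPKM in cold and 5.98, 0.773 and 1.66 FPKM in control Dongnong422 libraries. Its Kongyu131 values were 0.0290, 0.0779 and 0.231 FPKM in cold and 2.64, 2.90 and 1.24 FPKM in control libraries. The groups did not overlap in either cultivar, and the cold differences were −3.10 and −3.47. Its control mean in Dongnong422 rests largely on replicate 1.

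LNC_001057 (XLOC_040119), an antisense lncRNA, stood at 0.105, 0.141 and 0.109 FPKM in cold and 0.448, 2.28 and 1.23 FPKM in control Dongnong422 libraries. In Kongyu131 it was listed at 0, 0.383 and 0.837 FPKM in cold libraries and at 5.79, 6.91 and 4.91 FPKM in control libraries. A listed 0 may mean that no reads were seen or that the estimate failed. The cold differences were −2.70 in Dongnong422 and −3.56 in Kongyu131.

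Among the next 5 in order, 4 were low transcripts with no overlap of cold and control libraries in either cultivar. LNC_001374 (XLOC_053697, antisense) stood at 0.142, 0.193 and 0.368 FPKM in cold and 1.44, 1.31 and 1.49 FPKM in control Dongnong422 libraries. Its Kongyu131 values were 0.169, 0.342 and 0.369 FPKM in cold and 2.32, 1.41 and 1.84 FPKM in control libraries. The cultivars gave nearly the same cold differences, −2.18 in Dongnong422 and −2.31 in Kongyu131.

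LNC_000197 (XLOC_010007, lincRNA) stood at 0.106, 0.144 and 0.243 FPKM in cold and 1.10, 0.681 and 1.06 FPKM in control Dongnong422 libraries. Its Kongyu131 levels were 0, 0.219 and 0.133 FPKM in cold and 0.846, 1.17 and 1.24 FPKM in control libraries. It lies close to the floor of 0.5 FPKM, and it stayed a member in 8 of the 12 choices that leave out a library.

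LNC_000171 (XLOC_008372, antisense) stood at 0.215, 0.438 and 0.332 FPKM in cold and 1.15, 0.782 and 2.07 FPKM in control Dongnong422 libraries, a cold difference of −1.74. In Kongyu131 the values were 0.126, 0.128 and 0.413 FPKM in cold and 2.82, 2.13 and 0.935 FPKM in control libraries, a cold difference of −2.68. Control replicate 3 was the highest of its group in Dongnong422 and the lowest in Kongyu131.

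LNC_001317 (XLOC_052228, antisense) stood at 0.533, 0.264 and 0.400 FPKM in cold and 1.35, 2.11 and 2.67 FPKM in control Dongnong422 libraries. Its Kongyu131 values were 0.0567, 0.463 and 0.124 FPKM in cold and 1.34, 0.825 and 1.76 FPKM in control libraries. The cold differences of the cultivars, −2.1 and −2.17, were again close.

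LNC_001036 (XLOC_039167, antisense) was the exception among the lowest 8, with overlap in both cultivars. It was listed at 0, 0.400 and 1.01 FPKM in cold and 1.96, 0.782 and 1.07 FPKM in control Dongnong422 libraries. In Kongyu131 it was at 0.858, 0 and 0 FPKM in cold and 5.32, 1.67 and 0.810 FPKM in control libraries. Its cold differences were −1.27 in Dongnong422 and −2.81 in Kongyu131, where the control mean leans on replicate 1, the highest of its 12 values.

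**Figure D3:**
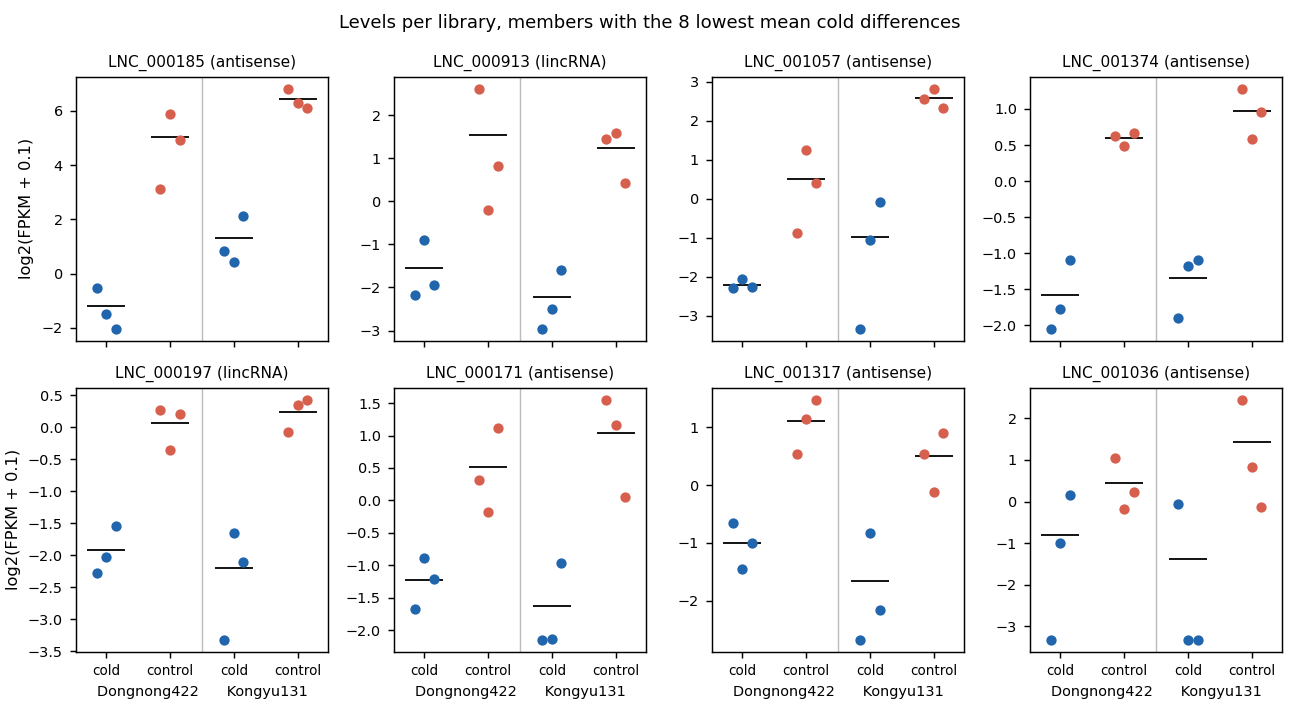
Levels of the 8 members with the lowest mean cold difference, as log2(FPKM + 0.1), with a point for each library (blue cold, red control) and a line at the log2 of the group mean plus 0.1. Cold points lie below control points in both cultivars in 7 of the 8, and LNC_001036 is the one with overlap.

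Of the 8 lowest, 6 were antisense lncRNAs and 2 lincRNAs. Over all members the antisense ones had a median cold difference of −1.24 in Dongnong422 and −1.20 in Kongyu131, against −1.02 and −1.10 for the lincRNAs. They were also lower in level, with a median of 1.29 FPKM in Dongnong422 and 1.59 FPKM in Kongyu131, against 3.87 and 3.22 FPKM. In both cultivars together, 6 of 22 antisense members and 5 of 40 lincRNAs were at −1.5 or lower. These values belong to the choice and were not tested.

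At the other end of the level range, 9 members averaged 10 FPKM or more over the 12 libraries, and 6 of these had no overlap in either cultivar. The share at the floor was not computed by level, so nothing is read from this count or the later ones by level. LNC_000547 (XLOC_020934), a lincRNA, stood at 21.9, 12.2 and 35.3 FPKM in cold and 38.5, 26.8 and 43.5 FPKM in control Dongnong422 libraries, where cold replicate 3 exceeded control replicate 2. In Kongyu131 the values were 7.17, 13.0 and 15.6 FPKM in cold and 27.7, 18.5 and 23.7 FPKM in control libraries, with no overlap.

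LNC_000693 (XLOC_025973), a lincRNA, stood at 10.8, 7.04 and 18.1 FPKM in cold and 24.4, 25.4 and 43.7 FPKM in control Dongnong422 libraries. Its Kongyu131 values were 7.23, 10.5 and 14.3 FPKM in cold and 34.3, 32.4 and 33.6 FPKM in control libraries. It combined a high level with a cold mean of 38.5% of control in Dongnong422 and 31.9% in Kongyu131.

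LNC_001109 (XLOC_042516), a lincRNA, stood at 10.9, 16.6 and 5.21 FPKM in cold and 31.2, 19.3 and 40.3 FPKM in control Dongnong422 libraries. Kongyu131 libraries held 7.35, 7.73 and 15.5 FPKM in cold and 28.0, 24.9 and 19.5 FPKM in control libraries. The antisense member LNC_001108, singled out after its values were seen, carries the neighbouring locus number XLOC_042515. This was the 1 pair of members with consecutive locus numbers, whose distance on the genome is not given in the tables. LNC_001108 stood at 9.64, 10.1 and 9.70 FPKM in cold and 17.9, 11.4 and 18.6 FPKM in control Dongnong422 libraries. Its Kongyu131 values were 6.14, 8.01 and 10.6 FPKM in cold and 20.5, 16.6 and 13.7 FPKM in control libraries. In both transcripts the Kongyu131 cold libraries had replicate 3 highest, as in 66.1% of members and 53.1% of the transcripts at the floor. The Kongyu131 controls had replicate 1 highest, as in 48.4% of members and 52.5% at the floor.

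LNC_001485 (XLOC_058147), an antisense lncRNA, stood at 12.4, 13.9 and 11.6 FPKM in cold and 19.8, 15.3 and 26.4 FPKM in control Dongnong422 libraries. The Kongyu131 values were 8.93, 9.86 and 16.1 FPKM in cold and 23.7, 26.0 and 20.8 FPKM in control libraries. Its cold differences were moderate, −0.70 and −1.01, but the groups were apart in both cultivars.

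LNC_000394 (XLOC_015932), a lincRNA, overlapped in both. It stood at 12.0, 12.7 and 17.5 FPKM in cold and 19.0, 34.8 and 16.5 FPKM in control Dongnong422 libraries. For Kongyu131 the values were 18.2, 4.78 and 20.5 FPKM in cold and 36.8, 21.2 and 12.5 FPKM in control libraries. Both control means lean on a single high library, replicate 2 in Dongnong422 and replicate 1 in Kongyu131.

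The same libraries were the highest controls in LNC_000451 (XLOC_017367), LNC_000567 (XLOC_021788) and LNC_000621 (XLOC_023313), lincRNAs singled out after their values were seen. LNC_000621 stood at 13.2, 4.98 and 5.06 FPKM in cold and 6.31, 27.0 and 17.5 FPKM in control Dongnong422 libraries, and at 14.7, 11.6 and 3.34 FPKM in cold and 50.4, 9.52 and 11.6 FPKM in control Kongyu131 libraries. LNC_000451 stood at 9.60, 5.43 and 9.15 FPKM in cold and 8.55, 21.5 and 9.78 FPKM in control Dongnong422 libraries, and at 3.17, 3.83 and 9.56 FPKM in cold and 19.0, 9.57 and 7.17 FPKM in control Kongyu131 libraries. LNC_000567 stood at 11.1, 6.64 and 9.56 FPKM in cold and 12.9, 22.6 and 9.61 FPKM in control Dongnong422 libraries, and at 3.34, 2.80 and 9.41 FPKM in cold and 16.9, 8.51 and 5.47 FPKM in control Kongyu131 libraries. All 4 are among the 10 members with overlap in both cultivars. Having replicate 2 highest in the Dongnong422 controls and replicate 1 highest in the Kongyu131 controls was not particular to them, since 10 members (16.1%) and 21.8% of the transcripts at the floor did.

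Between these ends, 20 members averaged 2 to 10 FPKM, with median cold differences of −0.89 in Dongnong422 and −1.09 in Kongyu131 and no overlap in either cultivar for 14. Another 19 averaged 1 to 2 FPKM, with medians of −1.30 and −1.0 and 14 apart in both. The remaining 14 averaged under 1 FPKM, with medians of −1.48 and −1.45 and 7 apart in both. The least separated of these, LNC_000238 (XLOC_011652, lincRNA, singled out after its values were seen), was listed at 0.416, 0 and 0 FPKM in cold and 0, 0 and 3.27 FPKM in control Dongnong422 libraries. The Kongyu131 libraries had 0.545, 0 and 0.301 FPKM in cold and 0.346, 2.59 and 0 FPKM in control libraries. Each of its control means rests on a single library, so its place among the members does too. It was 1 of 5 members listed at 0 in any library, with LNC_000076, LNC_000197, LNC_001036 and LNC_001057.

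Of the members at 2 to 10 FPKM, LNC_000690, LNC_000105 and LNC_001461 were singled out after their values were seen, as examples with no overlap in either cultivar. The lincRNA LNC_000690 (XLOC_025736) stood at 5.09, 4.79 and 4.33 FPKM in cold and 9.30, 14.0 and 14.5 FPKM in control Dongnong422 libraries, and at 4.74, 2.71 and 4.0 FPKM in cold and 19.4, 10.8 and 9.56 FPKM in control Kongyu131 libraries. The antisense LNC_000105 (XLOC_005810) stood at 2.89, 2.04 and 2.62 FPKM in cold and 6.43, 5.65 and 6.84 FPKM in control Dongnong422 libraries, and at 2.86, 2.55 and 3.89 FPKM in cold and 7.5, 8.81 and 6.4 FPKM in control Kongyu131 libraries. The lincRNA LNC_001461 (XLOC_057221) stood at 1.62, 3.17 and 1.02 FPKM in cold and 8.09, 5.80 and 10.7 FPKM in control Dongnong422 libraries, and at 3.04, 2.01 and 2.03 FPKM in cold and 8.12, 8.31 and 4.44 FPKM in control Kongyu131 libraries. In these 3 the lowest control library lay above the highest cold library in both cultivars, and the cold differences ran from −1.29 to −2.03 in Dongnong422 and from −1.26 to −1.77 in Kongyu131.

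Across the members, the cold differences of the cultivars lay within 0.5 of each other in 42 of 62 members and over 1 apart in 5. The median of Dongnong422 minus Kongyu131 was 0.14, and the lower value was that of Dongnong422 in 20 members and that of Kongyu131 in 42. The limma contrast of the cold differences between cultivars called 0 of the 62 members at an adjusted p under 0.05, and 0 had an unadjusted p under 0.05, while 0.416% of the 1441 lncRNAs were called. The rule bounds both cold differences, so nothing is read from this count.

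The widest gaps were in LNC_000193, LNC_001036 and LNC_000076. LNC_000193 (XLOC_009699, lincRNA) stood at 7.62, 9.83 and 4.58 FPKM in cold and 12.1, 6.99 and 16.9 FPKM in control Dongnong422 libraries, which overlap. In Kongyu131 it stood at 0.122, 0.835 and 0.400 FPKM in cold and 5.60, 2.40 and 0.771 FPKM in control libraries, where control replicate 3 lay under cold replicate 2. Its cold difference was −0.70 in Dongnong422 and −2.45 in Kongyu131, a gap of 1.75.

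LNC_000076 (XLOC_004352, lincRNA) had the opposite tilt. It was at 0.843, 0 and 0 FPKM in cold and 2.48, 0.679 and 1.66 FPKM in control Dongnong422 libraries, a cold difference of −2.16. In Kongyu131 it was at 1.66, 0.806 and 0.916 FPKM in cold and 2.1, 2.04 and 1.44 FPKM in control libraries, a cold difference of −0.68. The groups overlapped in both cultivars. The remaining 2 members over 1 apart were LNC_000185, with the lower cold difference in Dongnong422, and LNC_000582, with the lower one in Kongyu131.

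At the threshold, LNC_000303, LNC_001219 and LNC_001267 lay just inside, with cold differences of −0.88, −1.55 and −1.39 in Dongnong422 and of −0.60, −0.60 and −0.61 in Kongyu131. Just outside lay LNC_000235, with −1.03 in Dongnong422 and −0.59 in Kongyu131, LNC_001384, with −0.59 and −1.12, and LNC_000434, with −0.58 and −0.76. LNC_000303 (XLOC_013358, lincRNA) shows that a place near the threshold need not mean overlap. It stood at 1.14, 1.20 and 1.40 FPKM in cold and 2.03, 2.37 and 2.72 FPKM in control Dongnong422 libraries, and at 1.63, 1.27 and 2.11 FPKM in cold and 2.45, 2.81 and 2.50 FPKM in control Kongyu131 libraries. LNC_001219 (XLOC_048197, antisense) stood at 0.103, 0.281 and 0.531 FPKM in cold and 1.71, 0.637 and 0.910 FPKM in control Dongnong422 libraries, and at 0.906, 0.431 and 0.396 FPKM in cold and 0.875, 1.17 and 0.749 FPKM in control Kongyu131 libraries, which overlap. LNC_001267 (XLOC_050112, antisense) stood at 1.25, 0.691 and 0.881 FPKM in cold and 1.25, 4.48 and 2.17 FPKM in control Dongnong422 libraries, and at 1.18, 0.928 and 1.98 FPKM in cold and 1.73, 1.94 and 2.73 FPKM in control Kongyu131 libraries (overlap in Kongyu131, and a gap of under 0.01 FPKM between the nearest cold and control libraries in Dongnong422).

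The libraries did not weigh equally on the members. Kongyu131 cold replicate 3 was the highest Kongyu131 cold library in 41 of 62 members (66.1%), and in 53.1% of the transcripts at the floor. Dongnong422 control replicate 3 was the highest Dongnong422 control library in 33 members (53.2%), and in 35.9% at the floor. The median transcript at the floor stood at 1.69 to 2.1 FPKM in cold and 1.69 to 1.88 FPKM in control Dongnong422 libraries, and at 1.50 to 1.92 FPKM in cold and 1.78 to 2.14 FPKM in control Kongyu131 libraries. The most abundant transcript of the tables, LNC_000712, which is no member, stood at 369909 to 1170000 FPKM in cold and 274258 to 531710 FPKM in control Dongnong422 libraries, and at 260633 to 614704 FPKM in cold and 349316 to 432054 FPKM in control Kongyu131 libraries. The part of these levels in the members' values was not tested. Applied without Kongyu131 cold replicate 3, the rule chose 67 transcripts, 60 of them members. Without that library the median cold difference of the 62 members in Kongyu131 was −1.35. Without Dongnong422 control replicate 3 the rule chose 49, of which 46 were members, the fewest of any choice that left out a library. Of the 62 members, 28 were chosen whichever of the 12 libraries was left out, and the others in 8 to 11 of the 12 choices.

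Scaling between libraries moved the members' medians closer to 0. With median-ratio scaling the median over the transcripts at the floor was 0.08 in Dongnong422 and −0.06 in Kongyu131, and that over the members −0.94 and −0.98. With quantile normalization the members' medians were −0.99 and −0.90. Of the 62 members, 38 still met the whole rule, floor and threshold together, after median-ratio scaling and 42 after quantile normalization. How many of the others missed only the floor was not counted. Under either scaling all 62 kept a cold difference below 0 in both cultivars.

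Whether the choice holds in libraries it did not use was read by leaving out replicate 1, 2 or 3 of every group in turn. The rule was applied to the 8 libraries left, and each cultivar's left-out cold library was compared with its left-out control library. Without replicate 1 the rule chose 65 transcripts. Of these, 51 (78.5%) were lower in the left-out cold library of Dongnong422 and 55 (84.6%) in that of Kongyu131, against 47.9% and 67.5% of all transcripts at the floor. Without replicate 2 it chose 57, of which 47 (82.5%) and 53 (93.0%) were lower in cold, against 51.3% and 62.6%. Without replicate 3 it chose 61, of which 52 (85.2%) and 47 (77.0%) were lower in cold, against 56.6% and 45.8%. In every left-out pair the chosen transcripts were lower in cold more often than the transcripts at the floor.

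Both cultivars were lower in the left-out cold libraries for 45 of 65, 45 of 57 and 44 of 61 chosen transcripts (69.2%, 78.9% and 72.1%), against 34.7%, 35.4% and 33.4% at the floor. The median log2 difference of the left-out libraries over the chosen transcripts was −0.78, −0.61 and −1.13 in Dongnong422 and −1.18, −1.45 and −0.66 in Kongyu131. Over the transcripts at the floor it was 0.09, −0.04 and −0.16 in Dongnong422 and −0.41, −0.36 and 0.11 in Kongyu131. The 3 choices share libraries and 43 to 49 of their transcripts with the 62 members, so they are not independent of each other, and no p-value is given.

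**Figure D4:**
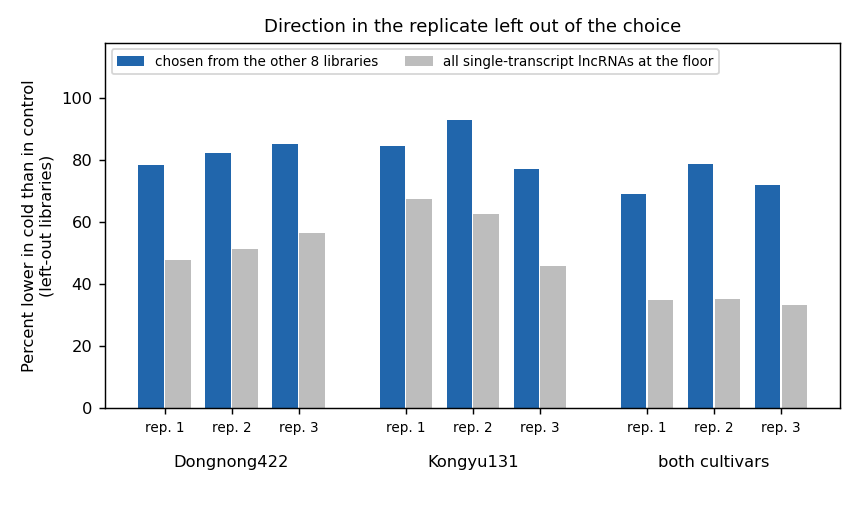
Percent of transcripts lower in the left-out cold library than in the left-out control library (y axis), by cultivar and by the replicate left out (x axis). Blue bars are the transcripts chosen from the other 8 libraries and grey bars all single-transcript lncRNAs at the floor. Blue bars reach 77.0% to 93.0% within a cultivar and grey bars 45.8% to 67.5%.

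The difference between cultivars, averaged over cold and control, was not used by the rule beyond its floor of 0.5 FPKM in each cultivar. Most members stood at levels that were not called different. Of the 62 members, 2 were called higher in Dongnong422 and 6 higher in Kongyu131 by limma with Benjamini-Hochberg adjustment over 1441 lncRNAs. This is 12.9% of the members, against 17.9% of all lncRNAs tested (9.37% higher in Dongnong422 and 8.54% higher in Kongyu131). Of the 499 transcripts at the floor, 7.21% were called (3.21% and 4.01%). Without Dongnong422 control replicate 3 the count was 4 of the 49 transcripts that the rule then chose. Without Dongnong422 cold replicate 2 it was 5 of the 65 then chosen. The share of all lncRNAs called without those libraries was not computed, so nothing is read from either count. A call that was not made does not show equal levels. The log2 differences of the other 54 members had standard errors of 0.164 to 1.06.

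LNC_000193 was the member most unlike between cultivars. It averaged 7.35 ± 2.63 FPKM in cold and 12.0 ± 4.95 FPKM in control Dongnong422 leaves, against 0.453 ± 0.359 and 2.92 ± 2.46 FPKM in Kongyu131 (SD, n = 3 each). Within each treatment every Dongnong422 library exceeded every Kongyu131 library. The log2 difference, Dongnong422 minus Kongyu131, was 3.11 (SE 0.483, limma adjusted p = 0.000525). LNC_000406 (XLOC_016243, lincRNA) stood at 1.03, 0.927 and 0.702 FPKM in cold and 1.17, 1.92 and 1.55 FPKM in control Dongnong422 libraries, against 0.335, 0.186 and 0.533 FPKM in cold and 1.23, 1.19 and 0.783 FPKM in control Kongyu131 libraries (log2 difference 0.84, SE 0.239, limma adjusted p = 0.0306). That call ended without Dongnong422 cold replicate 1 or 2, Dongnong422 control replicate 2 or 3, Kongyu131 cold replicate 1 or 2, or Kongyu131 control replicate 3 (adjusted p from 0.0586 to 0.0768).

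On the Kongyu131 side, LNC_000185 averaged 0.330 ± 0.231 FPKM in cold and 32.9 ± 25.4 FPKM in control Dongnong422 leaves, against 2.39 ± 1.63 and 86.0 ± 22.8 FPKM in Kongyu131 (SD, n = 3 each). In both treatments every Dongnong422 library was below every Kongyu131 library, and the log2 difference was −2.11 (SE 0.472, limma adjusted p = 0.00747). LNC_000508 (XLOC_019409, lincRNA) stood at 1.03, 0.275 and 0.222 FPKM in cold and 1.11, 1.50 and 1.62 FPKM in control Dongnong422 libraries, against 0.812, 0.527 and 2.39 FPKM in cold and 4.47, 5.43 and 3.97 FPKM in control Kongyu131 libraries. The control libraries were apart and the cold ones overlapped (log2 difference −1.39, SE 0.385, limma adjusted p = 0.0264). Its call ended without Dongnong422 control replicate 1, Dongnong422 cold replicate 2 or 3, or Kongyu131 control replicate 1 or 2 (adjusted p from 0.051 to 0.067).

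LNC_000858 (XLOC_032107, lincRNA) stood at 0.369, 0.540 and 0.621 FPKM in cold and 0.846, 0.737 and 1.11 FPKM in control Dongnong422 libraries, against 1.15, 0.843 and 1.66 FPKM in cold and 1.81, 2.63 and 2.01 FPKM in control Kongyu131 libraries. LNC_001140 (XLOC_043881, lincRNA) stood at 0.654, 0.559 and 0.503 FPKM in cold and 1.37, 0.821 and 1.88 FPKM in control Dongnong422 libraries, against 1.20, 1.39 and 1.65 FPKM in cold and 2.83, 2.64 and 2.32 FPKM in control Kongyu131 libraries. In both of these lincRNAs the cultivars were apart in each treatment while the cold differences were alike, with LNC_000858 at −0.71 in Dongnong422 and −0.77 in Kongyu131 and LNC_001140 at −1.12 and −0.84. Their log2 differences between cultivars were −1.13 (SE 0.215, limma adjusted p = 0.00251) and −1.06 (SE 0.207, adjusted p = 0.00298).

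The other 2 called members, LNC_000808 (XLOC_030314, antisense) and LNC_001141 (XLOC_043893, lincRNA), were named after their values were seen. LNC_000808 stood at 0.498, 0.323 and 0.242 FPKM in cold and 1.01, 1.02 and 1.21 FPKM in control Dongnong422 libraries, against 0.968, 0.839 and 0.957 FPKM in cold and 2.12, 1.34 and 1.85 FPKM in control Kongyu131 libraries (log2 difference −0.93, SE 0.195, limma adjusted p = 0.00502). LNC_001141 stood at 5.08, 4.45 and 2.63 FPKM in cold and 5.51, 6.14 and 7.91 FPKM in control Dongnong422 libraries, against 7.45, 4.35 and 7.28 FPKM in cold and 10.6, 9.84 and 11.6 FPKM in control Kongyu131 libraries (log2 difference −0.68, SE 0.213, limma adjusted p = 0.0471). LNC_000808 was apart in both treatments, and LNC_001141 in control libraries only. The call of LNC_001141 held without Dongnong422 cold replicate 1, Dongnong422 control replicate 3 or Kongyu131 cold replicate 2, and ended without any of the other 9 libraries (adjusted p from 0.0615 to 0.114).

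Of the members with the lowest cold differences, LNC_001374, LNC_000197, LNC_000171 and LNC_000913 had log2 differences between cultivars of −0.30, 0.11, −0.01 and 0.30 (limma adjusted p from 0.474 to 0.993). LNC_001057 and LNC_001317 were at −1.51 and 0.73 without a call (limma adjusted p = 0.0665 and 0.193). LNC_001057 was called with a pseudocount of 1 FPKM (limma adjusted p = 0.00451), without Kongyu131 cold replicate 1, where it was listed at 0 (log2 difference −1.96, limma adjusted p = 0.00281), and without Dongnong422 control replicate 2 (limma adjusted p = 0.0423). LNC_001317 was called without Kongyu131 cold replicate 2 (log2 difference 0.99, limma adjusted p = 0.0347).

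**Figure D5:**
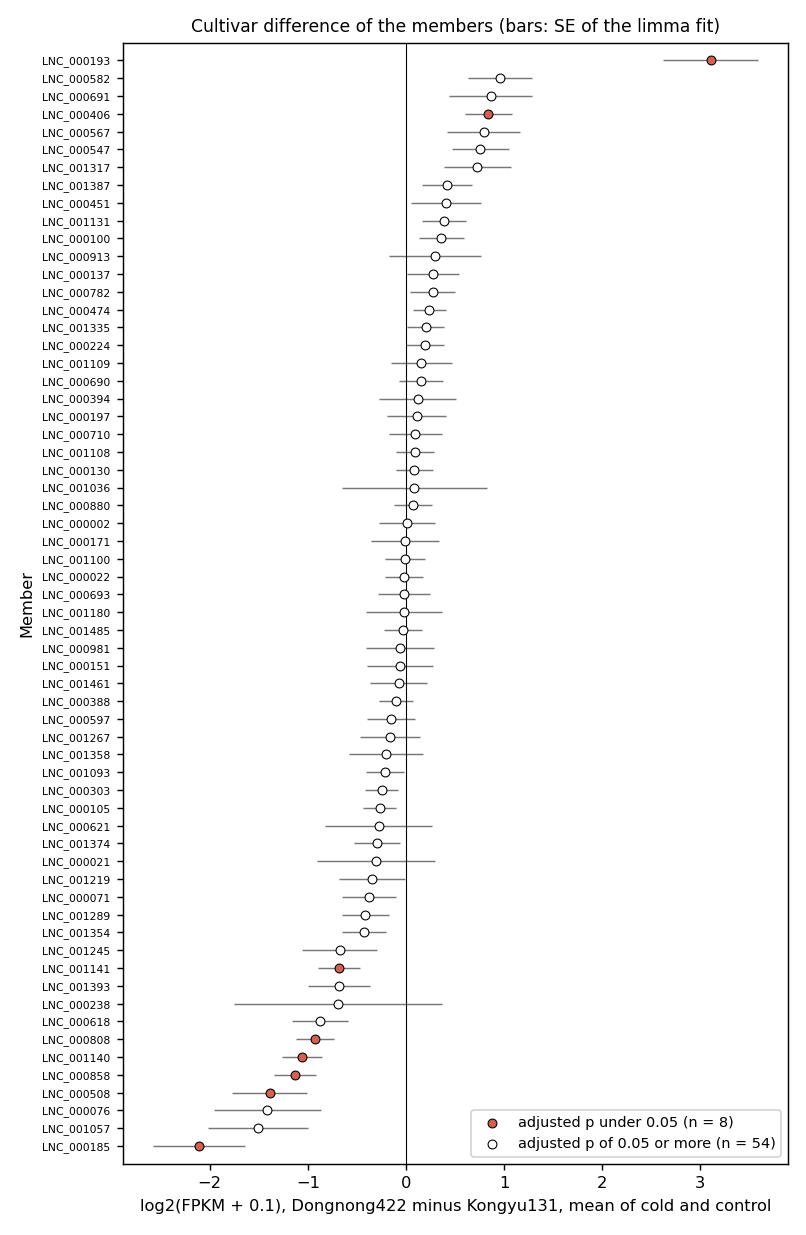
Log2 difference between cultivars (x axis, Dongnong422 minus Kongyu131, averaged over cold and control) of the 62 members, with the standard error of the limma fit as bars. Filled points are the 8 called members, from −2.11 in LNC_000185 to 3.11 in LNC_000193.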

How the data were processed

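The deposited FPKM values are the authors' own, in a table for each of the 12 libraries, and TopHat2 2.0.9 and Cufflinks 2.1.1 are named in the submitters' processing notes with no role. Genome build, annotation and the sorting of lncRNAs into classes were not among the sources read. Library depth cannot be recovered, because the most frequent ratio in a pair of libraries covered at most 6.88% of the transcripts compared (tolerance 1%). These were single-transcript lncRNAs averaging under 1 FPKM and detected in both libraries of the pair. None of the identifiers matched the RefSeq gene table. Members and lists were chosen with earlier results of these data known.

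Tests were run on log2(FPKM + 0.1) of the deposited FPKM with limma 3.58.1 in R 4.3.3 (4 group means, variance trend), over the 1441 transcripts averaging at least 0.1 FPKM. All 62 members passed that filter. Calls had a two-sided Benjamini-Hochberg adjusted p under 0.05, and the fit was tested on simulated data. A fold on this scale understates changes of low transcripts. The text names the 8 members with the lowest mean cold difference, the 6 highest in level, up to 4 called for cultivar each way, the 3 most different between cultivars and the 3 nearest the threshold on either side. Alternatives were other pseudocounts, filters, scalings and fits, and leaving out each library. The fit's contrasts of cold with control, and of the cold differences between cultivars, are given as counts only, because the rule used those values.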

Additional observations from a re-analysis of the deposited data

How the results depend on the processing

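The number of members, 62 as reported, was 40 with a pseudocount of 1 FPKM, 40 with a floor and filter of 1 FPKM, 38 with median-ratio scaling and 30 at a threshold of −1. It ran from 49 to 67 when a library was left out. The median cold difference of the 62 members was −0.71 in Dongnong422 and −0.88 in Kongyu131 with a pseudocount of 1 FPKM. It was −0.94 in Dongnong422 with median-ratio scaling. Leaving out a library gave −1.15 to −1.04 in Dongnong422 and −1.35 to −1.06 in Kongyu131. Among the transcripts that the rule chose, those with no overlap in both cultivars numbered 26 with median-ratio scaling and 26 with quantile normalization. They numbered 34 to 46 when a library was left out. The share at the floor was not computed under these alternatives.

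Members called for cultivar, 8 as reported, numbered 5 with a pseudocount of 1 FPKM, 4 with a floor and filter of 1 FPKM and 5 with median-ratio scaling, where fewer transcripts met the rule. They numbered 4 to 9 among the transcripts that the rule chose when a library was left out. With the replicate number as a block there were 8, with LNC_000406 and LNC_001141 no longer called (limma adjusted p = 0.0623 and 0.079) and LNC_000076 and LNC_001057 now called (0.0461 and 0.0403). The share of all lncRNAs called was not computed under any of these alternatives, so nothing is read from these counts. Deviations of same-numbered libraries correlated from −0.112 to 0.076, and those of differently numbered libraries from −0.119 to 0.109. No label says whether the numbers pair the libraries. No called cultivar difference of a named member changed sign under any alternative. Depth is unknown, so no counting error could be given for members under 1 FPKM.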
